A study of Mus musculus with 10 samples.

Results

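The genes described here are 10 genes of the major histocompatibility complex (MHC) class I system, out of 22198 genes in the deposited table. They were listed by name, namely the heavy chains H2-D1, H2-K1, H2-Q4, H2-T22 and H2-T23, the light chain B2m, the peptide transporter subunits Tap1 and Tap2, the loading factor Tapbp and the regulator Nlrc5, and all 10 were in the table. RNA had come from the cortex of untreated mice aged 6 months. The label ctrl stands for the genotype Mic19 WT (5 libraries) and the label BKO for the genotype Mic19 knockout (5 libraries). The strain, the sex, the way in which Mic19 was removed and the cells in which it was removed are not given in the sources used here. The study compared the genotypes for inflammation genes, and its title names leaked mitochondrial DNA, cGAS-STING signalling and epilepsy.

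A class I molecule is a heavy chain paired with beta-2-microglobulin (B2m), and it carries a short peptide from inside the cell to the cell surface for inspection by CD8 T cells and natural killer cells. The peptides are cut by the proteasome, pumped into the endoplasmic reticulum by the TAP1-TAP2 transporter and loaded with the help of tapasin (Tapbp), and NLRC5 is a transcriptional activator of class I genes in the nucleus. In healthy brain, class I levels are low and highest in microglia and vessel cells, and interferons raise them in most cell types.

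The values are FPKM (fragments counted for a gene, divided by its length in kilobases and by the size of the library), and those of a library summed to between 730340 and 766786. The libraries labelled BKO held no less Chchd3, the gene of Mic19 (81.5 to 94.2 FPKM, against 73.1 to 82.3 FPKM in those labelled ctrl). The mean of Chchd3 was 88.2 FPKM in BKO and 78.4 FPKM in ctrl, and 4 BKO libraries exceeded every ctrl library (by limma, adjusted p = 0.0528). The whole-gene level therefore does not check the labels, and every direction below is that of the libraries as labelled. Whether every library had a mouse to itself is not stated, so a p-value here reflects spread among libraries that may be technical. Markers of choroid plexus, a tissue of the ventricles, summed to more than 500 FPKM in 6 libraries (ctrl 1, 3 and 5 and BKO 1, 2 and 5) and to less in the other 4, and results are given below also within each of these sets. In whole tissue, fewer cells of a type and less RNA per cell cannot be told apart.

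In cortex labelled BKO, the classical heavy chains H2-D1 and H2-K1, the heavy chain H2-Q4, the light chain B2m and the transporter subunit Tap2 rose to between 1.26 and 1.78 times their ctrl mean, while H2-T22, H2-T23, Tap1 and Tapbp did not pass the test. Of the 9 genes that could be tested across the table, 5 were higher and 0 lower (limma, adjusted p under 0.05), where 3.32% of all 14447 genes tested were higher and 2.46% were lower. The 10 genes were chosen with earlier results of these data known, so comparisons with all genes are a description. No member fell in any of the 24 alternative settings, and with all libraries 0 of the 9 members had a log2 difference below 0 with an unadjusted p under 0.05. Testing required 0.5 FPKM or more in 5 or more of the 10 libraries. The 9 class I genes among them lay at 1.22 FPKM or more in every library, so none passed through 1 group only, and Nlrc5 lay below that level. The median log2 difference of the 9 was 0.45, against 0.00 over all genes tested. For 5 of the 9 the whole BKO range lay above the whole ctrl range, where this held for 3.62% of all genes tested.

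**Figure D1:**
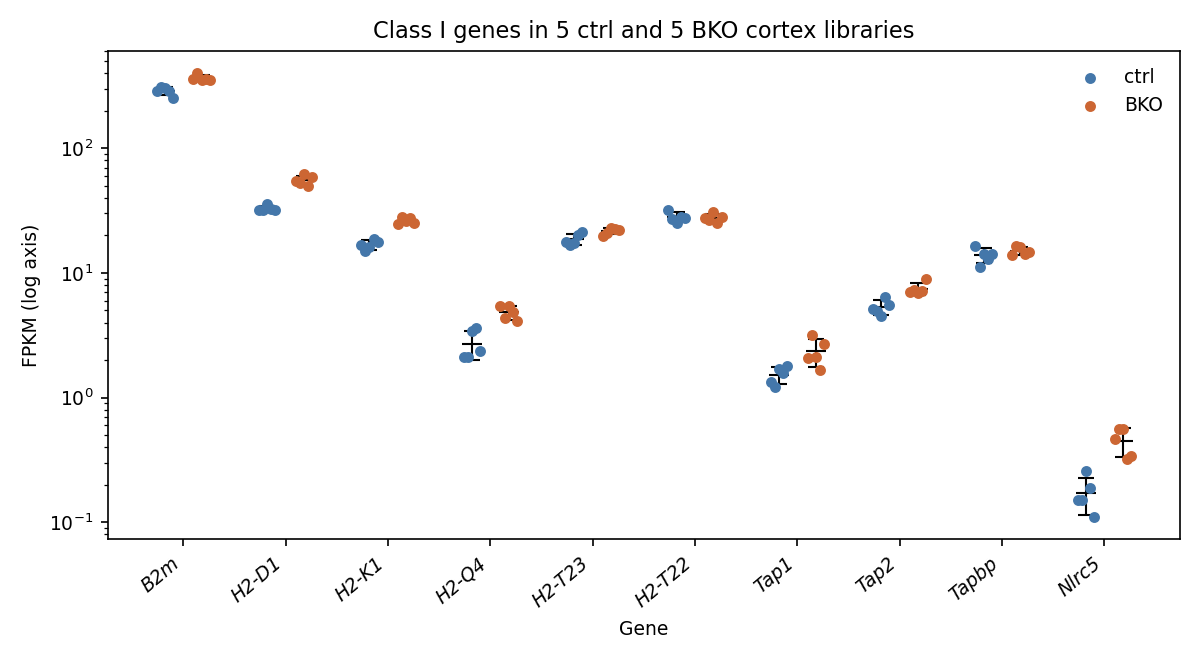
FPKM (log axis) of the 10 class I genes, 1 point per library, with the mean and SD of 5 ctrl and 5 BKO libraries. The BKO points lie above all ctrl points for B2m, H2-D1, H2-K1, H2-Q4, Tap2 and Nlrc5, and the groups overlap for H2-T23, H2-T22, Tap1 and Tapbp.

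H2-D1 encodes a classical heavy chain, the kind that presents peptides to CD8 T cells. The ctrl libraries 1 to 5 held 31.98, 31.72, 35.81, 32.36 and 31.70 FPKM of H2-D1, and the BKO libraries 1 to 5 held 54.24, 52.24, 61.99, 49.41 and 58.50 FPKM. The groups did not overlap: the lowest BKO library (BKO 4, 49.41 FPKM) exceeded the highest ctrl library (ctrl 3, 35.81 FPKM). The mean went from 32.7 ± 1.75 to 55.3 ± 5.00 FPKM (mean ± SD, n = 5 per group), 1.69 times the ctrl mean. Differences were taken as log2(FPKM + 0.5), so that changes of low genes are understated, and here the difference was 0.74 (standard error 0.0625, adjusted p 2.31e-06 by limma).

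H2-K1 encodes the other classical heavy chain of the 10. Its values in ctrl 1 to 5 were 16.76, 14.86, 16.25, 18.74 and 17.57 FPKM, and in BKO 1 to 5 they were 24.62, 27.85, 26.19, 27.55 and 24.95 FPKM. Again the groups were apart, and BKO 1 and BKO 5, the lowest of their group for H2-K1, were not the lowest for H2-D1. H2-K1 rose from 16.8 ± 1.45 to 26.2 ± 1.47 FPKM (mean ± SD, n = 5 per group), a log2 difference of 0.63 (standard error 0.0664, adjusted p 2.27e-05 by limma). The changes of H2-D1 and H2-K1 did not differ beyond the spread between libraries. Within a library, log2 H2-D1 minus log2 H2-K1 was 0.94 ± 0.148 in ctrl and 1.06 ± 0.184 in BKO (mean ± SD, n = 5 per group), a difference of 0.12 (2-sided exact permutation test, p = 0.278, or 0.370 adjusted for 4 such comparisons). It ran from 0.08 to 0.17 with 1 library left out.

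H2-Q4 belongs to the Q region, whose heavy chains are less variable than the classical ones, and it was scarce. The ctrl libraries 1 to 5 held 2.12, 2.11, 3.39, 3.60 and 2.36 FPKM of H2-Q4, and the BKO libraries 1 to 5 held 5.40, 4.38, 5.44, 4.85 and 4.08 FPKM. The groups did not overlap, though ctrl 4 came close to BKO 5. The log2 difference was 0.75 (standard error 0.146, adjusted p 0.00509 by limma), from 2.72 ± 0.722 to 4.83 ± 0.605 FPKM (mean ± SD, n = 5 per group).

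H2-T23 encodes Qa-1, which presents leader peptides of other class I chains to natural killer receptors. Its ctrl libraries 1 to 5 held 17.84, 16.76, 17.36, 20.18 and 21.14 FPKM, and its BKO libraries 1 to 5 held 19.94, 20.94, 23.02, 22.68 and 22.04 FPKM. The groups overlapped, with 3 BKO libraries above every ctrl library. The log2 difference of H2-T23 was 0.22 (standard error 0.0717, adjusted p 0.104 by limma), and among the 24 alternative settings it passed only without ctrl 5 (0.26, by limma, adjusted p = 0.0393). H2-T22, a heavy chain recognised by some gamma-delta T cells, stood at 32.24, 26.98, 25.05, 28.22 and 27.62 FPKM in ctrl 1 to 5 and at 27.41, 26.52, 30.93, 24.98 and 28.13 FPKM in BKO 1 to 5. The 2 ranges of H2-T22 lay almost on top of each other, and the log2 difference was -0.02 with a 95% interval from -0.17 to 0.13 (by limma, adjusted p = 0.922). The interval of H2-D1 ran from 0.61 to 0.88. The difference between the changes of H2-D1 and H2-T22 was not tested.

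B2m, the light chain that every one of these heavy chains needs to reach the surface, was by far the most abundant of the 10. Its values in ctrl 1 to 5 were 287.01, 309.31, 301.39, 289.36 and 254.06 FPKM, and in BKO 1 to 5 they were 360.08, 401.27, 352.80, 356.71 and 350.69 FPKM. The groups were apart, with ctrl 5 lowest in ctrl and BKO 2 well above the other BKO libraries. B2m rose from 288 ± 21.1 to 364 ± 21.0 FPKM (mean ± SD, n = 5 per group), a log2 difference of 0.34 (standard error 0.0550, adjusted p 0.00115 by limma). H2-D1 rose more than B2m did. Within a library, log2 H2-D1 minus log2 B2m was -3.12 ± 0.106 in ctrl and -2.71 ± 0.179 in BKO (mean ± SD, n = 5 per group), with the BKO values all above the ctrl values, and the difference of 0.41 gave p = 0.00794 (exact permutation test, 2-sided, the smallest p these groups allow; 0.0317 adjusted over the 4 comparisons). After quantile normalization the adjusted p was 0.0635 (exact permutation test), with the difference still at 0.41. For H2-K1 against B2m the difference was 0.29 (2-sided exact permutation test, p = 0.0238, or 0.0476 adjusted for the 4), with 3 of 5 BKO libraries above every ctrl library. That call was lost without any 1 of the BKO libraries (differences of 0.26 to 0.31, exact permutation test, adjusted p = 0.0794 to 0.111).

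The 250 bases before the RefSeq start are printed here for the genes with the 3 smallest p among the members and for H2-T22, because these are a set that rose and a heavy chain that did not pass the test. Capitals mark letters that match a motif searched on both strands. The motifs were CCAAT (Y box, bound by NF-Y), TGACGT or TGACGC (X2 box, bound by CREB and ATF proteins), the core of the interferon-stimulated response element (GAAA, NN and GAAA in a row) and an NF-kB element (GGGA, NN and TCCC in a row). A pair of stretches copied from the H2-D1 sequence, GGGATTCCCC (NF-kB-like) and AAGTGAAACT (interferon-like, read on the other strand), was marked too. It was chosen after the sequences had been read, because heavy chains share it, so its presence in any of them is no finding. The sequences are those of RefSeq on GRCm38.p6, another build than the mm39 named for the table. They are H2-D1 (chr17:35262844-35263093, plus strand), H2-K1 (chr17:34000334-34000583, minus strand, the farther downstream of its annotated starts), B2m (chr2:122147437-122147686, plus strand) and H2-T22 (chr17:36042743-36042992, minus strand).
H2-D1: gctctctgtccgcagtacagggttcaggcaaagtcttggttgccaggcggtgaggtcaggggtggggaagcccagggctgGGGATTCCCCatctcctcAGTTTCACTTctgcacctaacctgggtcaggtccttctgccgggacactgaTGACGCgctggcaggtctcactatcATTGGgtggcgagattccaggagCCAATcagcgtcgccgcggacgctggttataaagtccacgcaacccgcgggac
H2-K1: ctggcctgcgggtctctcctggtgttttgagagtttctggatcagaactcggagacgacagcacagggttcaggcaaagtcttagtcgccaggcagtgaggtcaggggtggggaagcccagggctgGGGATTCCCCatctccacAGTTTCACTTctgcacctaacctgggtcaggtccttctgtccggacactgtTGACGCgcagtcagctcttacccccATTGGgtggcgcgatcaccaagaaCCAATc
B2m: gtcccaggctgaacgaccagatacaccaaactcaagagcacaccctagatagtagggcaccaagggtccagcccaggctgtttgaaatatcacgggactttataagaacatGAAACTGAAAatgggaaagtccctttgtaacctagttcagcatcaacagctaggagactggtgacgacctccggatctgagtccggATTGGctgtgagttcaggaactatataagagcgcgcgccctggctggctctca
H2-T22: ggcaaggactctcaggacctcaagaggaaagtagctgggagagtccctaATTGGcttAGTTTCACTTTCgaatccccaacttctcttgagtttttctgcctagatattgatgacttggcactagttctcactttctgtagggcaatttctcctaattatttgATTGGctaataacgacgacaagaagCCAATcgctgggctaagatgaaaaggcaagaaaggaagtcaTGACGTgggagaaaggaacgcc

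H2-D1 and H2-K1 showed the same series of matches in the same order, GGGATTCCCC, then the reverse complement of AAGTGAAACT, then TGACGC and then Y boxes on either strand. B2m held the interferon core and a Y box, with no match in this window to the X2 or NF-kB letters as searched. Just after the interferon core it has gggaaagtccc, where the gap between GGGA and TCCC is longer than the searched NF-kB letters allow. The search could not find such a run, so B2m is not shown to lack an NF-kB element. H2-T22 held the reverse complement of AAGTGAAACT, where it overlaps a match to the interferon core, and an X2 match nearer to its start, but neither NF-kB motif. RefSeq promoters were at hand for 8 of the 10 genes, not for Tap2 and Nlrc5. CCAAT was found in all 8, against 33.8% of 32851 promoter windows of the same length. TGACGT or TGACGC was found in 4 of the 8 (H2-D1, H2-K1, H2-Q4 and H2-T22), against 11.9%. The interferon core was found in H2-T22, H2-T23 and B2m, against 2.98%, and the NF-kB element in H2-Q4, against 0.578%. Of the stretches chosen from the sequences, AAGTGAAACT is shared by H2-D1, H2-K1, H2-Q4 and H2-T22, and GGGATTCCCC by H2-D1 and H2-K1, which is how they were chosen. The interferon core, X2 and Y letters were present both before genes that rose and before H2-T22, which did not pass the test. Their arrangement differed. The X2 match lay farther from the start than the Y matches in H2-D1 and H2-K1, and between them in H2-Q4. In H2-T22 it lay nearer to the start than every Y match, at 22 bases, so the letters do not show a shared element. A match is a run of letters and not a measured binding site.

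**Figure D2:**
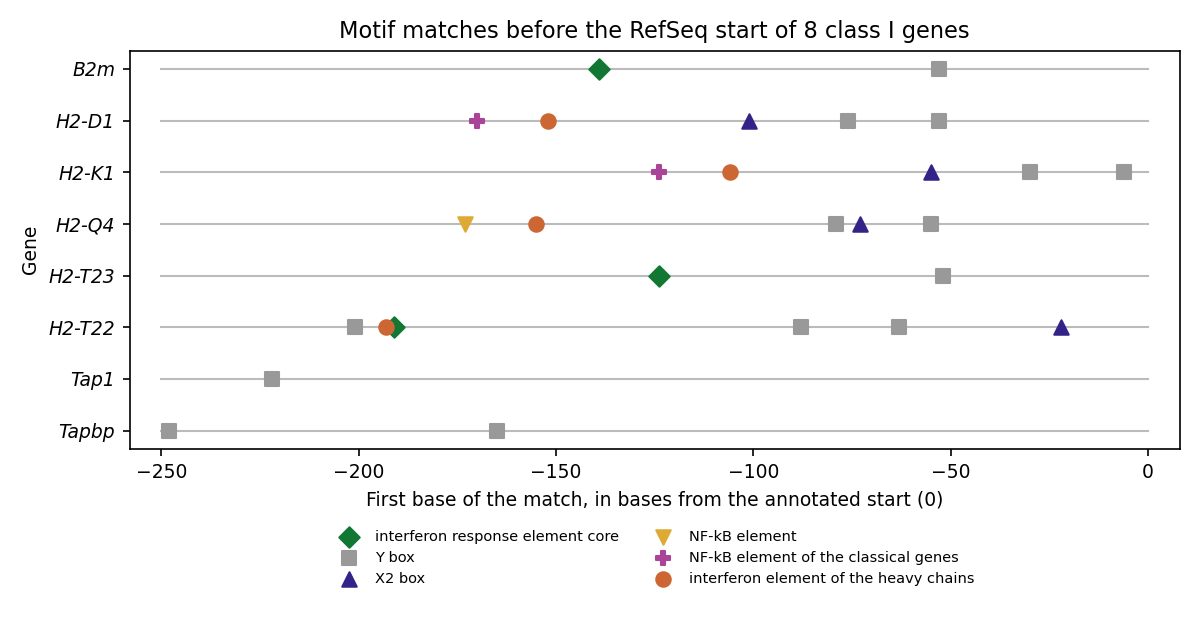
Position of each motif match in the 250 bases before the annotated start (0) of 8 class I genes, 1 line per gene and 1 symbol per motif, with the farther downstream start for H2-K1. H2-D1 and H2-K1 have the NF-kB-like stretch, the interferon-like stretch, an X2 match and then Y matches in that order. Both stretches were copied from the H2-D1 sequence, so their presence in heavy chains is no finding. H2-Q4 has the searched NF-kB element, the interferon-like stretch and an X2 match between its Y matches. H2-T22 has the interferon core, the interferon-like stretch, X2 and Y matches, H2-T23 and B2m have the interferon core and a Y match, and Tap1 and Tapbp have Y matches only.

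TAP1 and TAP2 form the pump that brings peptides into the endoplasmic reticulum. The ctrl libraries 1 to 5 held 5.15, 4.95, 4.52, 6.37 and 5.58 FPKM of Tap2, and the BKO libraries 1 to 5 held 6.98, 7.26, 6.89, 7.14 and 8.87 FPKM. The groups did not overlap, and BKO 5 stood above the rest. Tap2 rose from 5.31 ± 0.703 to 7.43 ± 0.819 FPKM (mean ± SD, n = 5 per group), a log2 difference of 0.45 (standard error 0.101, adjusted p 0.0142 by limma). Tap1 was scarcer, at 1.34, 1.22, 1.71, 1.58 and 1.78 FPKM in ctrl 1 to 5 and at 2.06, 3.19, 2.13, 1.67 and 2.68 FPKM in BKO 1 to 5. For Tap1, 4 BKO libraries exceeded the highest ctrl value, and BKO 4 lay within the ctrl range. Its log2 difference was 0.47 (standard error 0.155, adjusted p 0.102 by limma), so Tap1 missed the threshold with a difference of about the size of that of Tap2. The 2 changes did not differ beyond the spread between libraries (difference of -0.02, 2-sided exact permutation test, p = 0.873, or 0.873 adjusted for the 4), with values from -0.11 to 0.08 when 1 library was left out.

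Tapbp encodes tapasin, which holds an empty class I molecule next to the transporter. It stood at 16.49, 11.24, 14.30, 13.02 and 14.16 FPKM in ctrl 1 to 5 and at 13.93, 16.57, 16.03, 14.27 and 14.68 FPKM in BKO 1 to 5. The groups overlapped, and ctrl 1 and ctrl 2 marked both ends of the ctrl range. The log2 difference of Tapbp was 0.13 with a 95% interval from -0.07 to 0.32 (by limma, adjusted p = 0.518).

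Nlrc5, the class I activator, lay near the floor of the table, and the counting error at such low levels is unknown here. The ctrl libraries 1 to 5 held 0.15, 0.15, 0.26, 0.19 and 0.11 FPKM of Nlrc5, and the BKO libraries 1 to 5 held 0.47, 0.56, 0.56, 0.32 and 0.34 FPKM. The groups did not overlap, though BKO 4 and ctrl 3 were close. The mean was 0.172 ± 0.0567 FPKM in ctrl and 0.450 ± 0.116 FPKM in BKO (mean ± SD, n = 5 per group), 2.62 times the ctrl mean. The log2(FPKM + 0.5) difference was 0.49 (exact permutation test, 2-sided, p = 0.00794), and it was 1.01 with a pseudocount of 0.1 and 0.30 with a pseudocount of 1. When no filter was set, so that Nlrc5 entered the fit over all genes, its adjusted p was 0.0129 (limma).

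**Figure D3:**
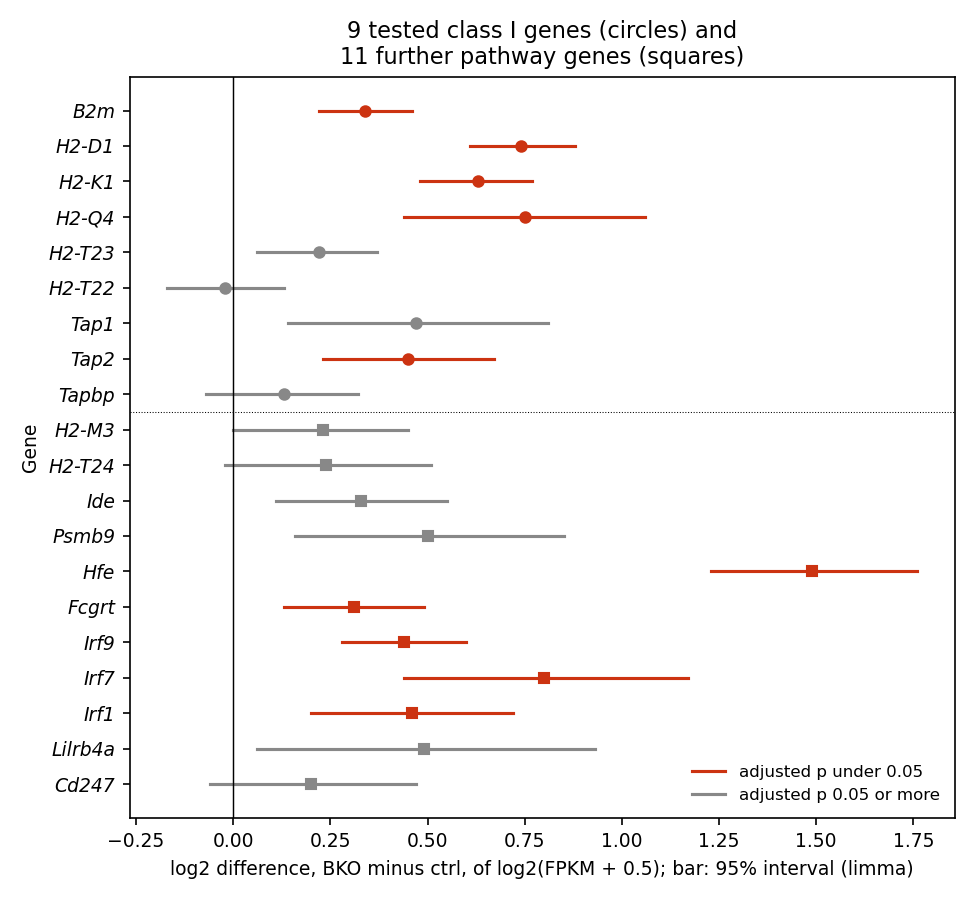
Log2 difference, BKO minus ctrl, with its 95% interval from limma, for the 9 tested class I genes (circles) and for 11 further genes of the pathway (squares), with adjusted p under 0.05 in red. The class I genes in red lie between 0.34 (B2m) and 0.75 (H2-Q4), and the interval of H2-T22 spans 0.

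FPKM is scaled to transcript length, so levels are set side by side between genes here, within the limit given at the end of this paragraph. In ctrl the order from the highest mean level was B2m, H2-D1, H2-T22, H2-T23, H2-K1, Tapbp, Tap2, H2-Q4, Tap1 and Nlrc5. The ranges of H2-D1 and H2-T22 overlapped there, as did those of H2-T23 and H2-K1 and those of H2-K1 and Tapbp, and the other neighbours were apart. In BKO the order was the same except that H2-K1 stood above H2-T23, in 5 of 5 libraries, whereas H2-T23 stood above H2-K1 in 5 of 5 ctrl libraries. In BKO only H2-T22 and H2-K1 overlapped among neighbours. The 5 heavy chains together had 98.9 ± 4.09 FPKM in ctrl and 136 ± 7.33 FPKM in BKO (mean ± SD, n = 5 per group). H2-D1 made up 33.1% ± 2.29 of that sum in ctrl and 40.7% ± 1.79 in BKO, and H2-T22 28.3% ± 2.39 and 20.3% ± 0.667 (mean ± SD, n = 5 per group). B2m was 2.92 ± 0.307 times the heavy chain sum in ctrl and 2.69 ± 0.245 times in BKO (mean ± SD, n = 5 per group), so the 2 groups lay within each other's spread on that ratio. These shares and sums are descriptions without a test. Other class I genes, such as members of the Q and T regions, are near-identical in sequence to some of these heavy chains. Reads that match several of them can be divided or left uncounted, and how they were treated is not given in the sources used here. The level of a single heavy chain is therefore uncertain, and so are the order, sum, shares and ratio above.

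Within the groups the members did not vary together as a block. After each group's mean was subtracted, 21 of the 36 pairs of tested members had a positive Pearson correlation over the 10 libraries, with a median of 0.12. The highest was that of H2-K1 with H2-T23 (r = 0.71) and the lowest that of H2-T23 with B2m (r = -0.73), over 10 libraries that share scaling and choroid plexus content. By the same measure the genes most like H2-D1 were Gkn3 (r = 0.93), Stmn2 (r = 0.92) and Incenp (r = 0.92), and those most like B2m were Dync2i1 (r = 0.98), Ccdc92 (r = 0.95) and Foxj2 (r = 0.94). None of these 6 passed the test between the groups (by limma, adjusted p from 0.108 to 0.996). They are the highest of the correlations with all tested genes over 10 points and are given as a description.

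Of the 10 genes, 8 lie on chromosome 17 in the MHC region, while B2m lies on chromosome 2 and Nlrc5 on chromosome 8. In RefSeq order on GRCm38.p6, matched by name, 87 other tested genes lie from Tapbp to H2-T22. Of these, 2 were higher (2.30%) and 0 lower in BKO, against 3.32% and 2.46% over all genes, and their median log2 difference was 0.01. The 2 were C4b, a complement component, with a log2 difference of 1.31 (standard error 0.0828, adjusted p 1.34e-07 by limma), and Clic1, a chloride channel protein, with 0.56 (standard error 0.0923, adjusted p 0.00136 by limma), both named after their values were seen. The tested genes from H2-DMb1 to H2-Eb1, which surround Tap1 and Tap2, all had differences above that median. There the log2 differences were 0.49 for H2-DMb1, 0.50 for Psmb9, 0.47 for Tap1, 0.37 for Psmb8, 0.45 for Tap2, 0.33 for H2-Ob, 0.16 for H2-Ab1, 0.49 for H2-Aa and 0.46 for H2-Eb1. Of these genes, which include subunits of the immunoproteasome and MHC class II genes, Tap2 alone passed (by limma, adjusted p = 0.0142, against 0.0898 to 0.766 for the others), and the stretch was chosen after its values were seen. Just outside it, the log2 differences were -0.02 for H2-DMb2 and -0.04 for H2-DMa on 1 side. On the other side they were 0.19 for Notch4 and 0.22 for Gpsm3.

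**Figure D4:**
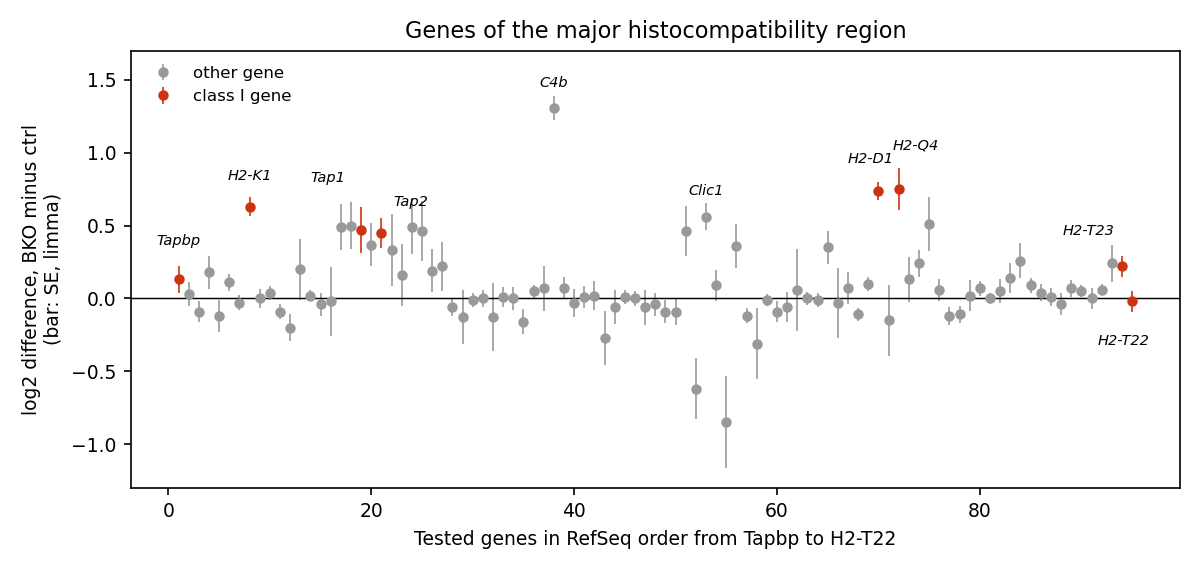
Log2 difference, BKO minus ctrl, with its SE from limma, of each tested gene in RefSeq order from Tapbp to H2-T22, with the 8 class I genes of that stretch in red and 87 other genes in grey. H2-K1, H2-D1, H2-Q4 and Tap2 passed the test, Tap2 lies among genes with differences of about its size, and of the other genes C4b and Clic1 passed the test.

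Further genes of the pathway were taken from 5 lists. Of 4 other class I heavy chains that could be tested, none passed, and 11 more in the table lay below the filter, 4 of them listed at 0 in every library. H2-M3, which presents formylated peptides of bacteria and mitochondria, went from 2.50 ± 0.289 to 3.00 ± 0.228 FPKM (mean ± SD, n = 5 per group), a log2 difference of 0.23 (by limma, adjusted p = 0.293). H2-T24 stood at 2.52 ± 0.375 and 3.08 ± 0.430 FPKM (mean ± SD, n = 5 per group; by limma, adjusted p = 0.339).

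Of 18 genes of peptide supply and loading, which include the immunoproteasome and the chaperones calnexin and calreticulin, 0 passed with all libraries. Over all genes tested 3.32% were higher and 2.46% lower, so 0 of 18 does not set the list apart. The median log2 difference was 0.07, and 12 of the 18 differences were above 0. Ide, a cytosolic peptidase, had a log2 difference of 0.33 (standard error 0.103, adjusted p 0.0848 by limma), from 28.9 ± 4.32 to 36.5 ± 4.85 FPKM (mean ± SD, n = 5 per group). Psmb9, a catalytic subunit of the immunoproteasome whose gene adjoins Tap1, had 0.50 (standard error 0.160, adjusted p 0.0898 by limma), from 1.87 ± 0.473 to 2.85 ± 0.587 FPKM. For each of these 2 genes, 4 BKO libraries exceeded the highest ctrl value. Ide passed without ctrl 1 (by limma, adjusted p = 0.0114) and without BKO 3 (by limma, adjusted p = 0.0125), and Psmb9 without ctrl 4 (by limma, adjusted p = 0.0301) and without BKO 1 (by limma, adjusted p = 0.0375), and also with the choroid plexus markers as a covariate (by limma, adjusted p = 0.0443).

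Of 5 class I-like molecules that could be tested, 2 rose, where 3.32% of all genes tested were higher. Hfe, a class I-like protein that binds B2m and takes part in the control of iron uptake, went from 3.51, 2.23, 3.01, 3.00 and 3.63 FPKM in ctrl 1 to 5 to 11.58, 8.09, 8.76, 9.43 and 9.77 FPKM in BKO 1 to 5. The lowest BKO library (8.09 FPKM) stood far above the highest ctrl library (3.63 FPKM). Its log2 difference was 1.49 (standard error 0.123, adjusted p 2e-06 by limma), and it passed under each of the 24 alternative settings. Fcgrt, the neonatal Fc receptor, which also pairs with B2m, rose by 0.31 on the log2 scale (standard error 0.0823, adjusted p 0.0391 by limma), with ctrl at 9.63 to 12.41 FPKM and BKO at 12.44 to 15.20 FPKM (n = 5 per group). The call was lost with a difference of 0.31 without the filter, 0.30 with the choroid plexus covariate and 0.32 with the endothelial covariate, and with 0.24 and 0.41 in the libraries high and low in choroid plexus markers (by limma, adjusted p = 0.0583 to 0.371). It was also lost without ctrl 2, 3 or 4 or BKO 1, 2 or 4 (0.27 to 0.32, by limma, adjusted p = 0.0644 to 0.104).

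Of 25 transcription regulators and interferon signalling genes of class I, 3 rose and 0 fell. Over all genes tested 3.32% were higher and 2.46% lower, and the median log2 difference of the 25 was 0.01. The 3 that rose were Irf9 (0.44, standard error 0.0757, adjusted p 0.00191 by limma), Irf7 (0.80, standard error 0.171, adjusted p 0.0100 by limma) and Irf1 (0.46, standard error 0.120, adjusted p 0.0363 by limma). Irf9 is the DNA-binding part of the complex that type I interferon receptors switch on, and Irf1 and Irf7 are interferon-induced factors. The groups were apart for Irf9 and Irf7 and overlapped for Irf1. The call on Irf1 was lost without the filter on low values (0.46, by limma, adjusted p = 0.0771) and without ctrl 1, 2 or 3 or BKO 2, 4 or 5 (0.41 to 0.46, by limma, adjusted p = 0.0756 to 0.0970). With the endothelial markers as a covariate the log2 differences were 0.38 for Irf9, 0.89 for Irf7 and 0.33 for Irf1, and 0 of the 3 passed (by limma, adjusted p = 0.0622, 0.0607 and 0.371). In the libraries high in choroid plexus markers they were 0.44, 0.85 and 0.51 in the same order, and Irf7 passed (by limma, adjusted p = 0.0208). In those low in these markers they were 0.44, 0.73 and 0.39, and 0 passed (by limma, adjusted p = 0.179 to 0.550). The RFX and NF-Y subunits that form the platform for NLRC5, and the interferon receptor subunits, did not pass. Of the receptors for class I, 2 could be tested and neither passed, and 10 lay below the filter. Lilrb4a, an inhibitory receptor of myeloid cells, stood at 0.644 ± 0.280 and 1.10 ± 0.324 FPKM (mean ± SD, n = 5 per group; by limma, adjusted p = 0.205). Cd247, a signalling chain of T and natural killer cell receptors, stood at 4.58 ± 0.796 and 5.34 ± 0.736 FPKM (mean ± SD, n = 5 per group; by limma, adjusted p = 0.442).

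Some cell type markers moved with the genotype labels, where 3.32% of all genes tested were higher and 2.46% lower. Of 10 microglia markers none passed, and they summed to 269 to 325 FPKM in ctrl and 293 to 320 FPKM in BKO. The 10 endothelial markers also had 0 calls, but they summed to 83.8 to 106 FPKM in ctrl and to 120 to 126 FPKM in BKO 2 to 5, with BKO 1 at 85.5 FPKM. When the endothelial sum was added to the fit as a covariate, the log2 differences were 0.74 for H2-D1, 0.57 for H2-K1, 0.29 for B2m, 0.79 for H2-Q4 and 0.36 for Tap2. H2-D1, H2-K1 and B2m still passed (by limma, adjusted p = 0.000190, 0.00179 and 0.0471), and H2-Q4 and Tap2 did not (by limma, adjusted p = 0.0531 and 0.220), where 1.75% of all genes were higher and 1.25% lower.

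Of 10 astrocyte markers 5 rose, where 3.32% of all genes tested were higher and 2.46% lower. The 10 summed to 2100 to 2330 FPKM in ctrl and 2600 to 2880 FPKM in BKO. The largest part of that rise was Gfap (mean of 85.4 FPKM in ctrl and 435 FPKM in BKO). Aldh1l1, Aqp4, Slc1a3 and Atp1b2 also passed, and Slc1a2, Gja1, Aldoc, Fgfr3 and Slc4a4 did not. All 10 oligodendrocyte markers fell, from sums of 2950 to 3520 FPKM to sums of 995 to 1350 FPKM. Of 10 neuron markers 2 fell (sums of 4880 to 5370 and 4520 to 4950 FPKM). The part of these 3 cell types in the class I values was not tested. Perivascular macrophage markers had 0 calls of 6 (4.03 to 7.58 and 3.98 to 9.73 FPKM), neutrophil and monocyte markers 0 of 6 tested (10.3 to 22.9 and 8.71 to 63.5 FPKM, the highest in BKO 2) and mural cell markers 0 of 9 (110 to 127 and 101 to 124 FPKM). Meningeal fibroblast markers had 0 calls of 7 tested (814 to 1080 and 494 to 1450 FPKM, most of it Ptgds). Red blood cell markers had 0 of 5 (249 to 354 and 207 to 738 FPKM, the highest in BKO 5). Most T and natural killer cell markers were near the floor, since 9 of 11 in the table averaged under 0.5 FPKM. Among these, Ncr1 was at 0 in every library, and Cd8a, the co-receptor that binds class I, ran from 0 to 0.22 FPKM. The 2 that could be tested, Cd4 (2.31 to 4.32 FPKM) and Lck (1.15 to 2.17 FPKM), did not pass. B cell markers summed to at most 2.25 FPKM, and Pax5 was at 0 in every library.

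**Figure D5:**
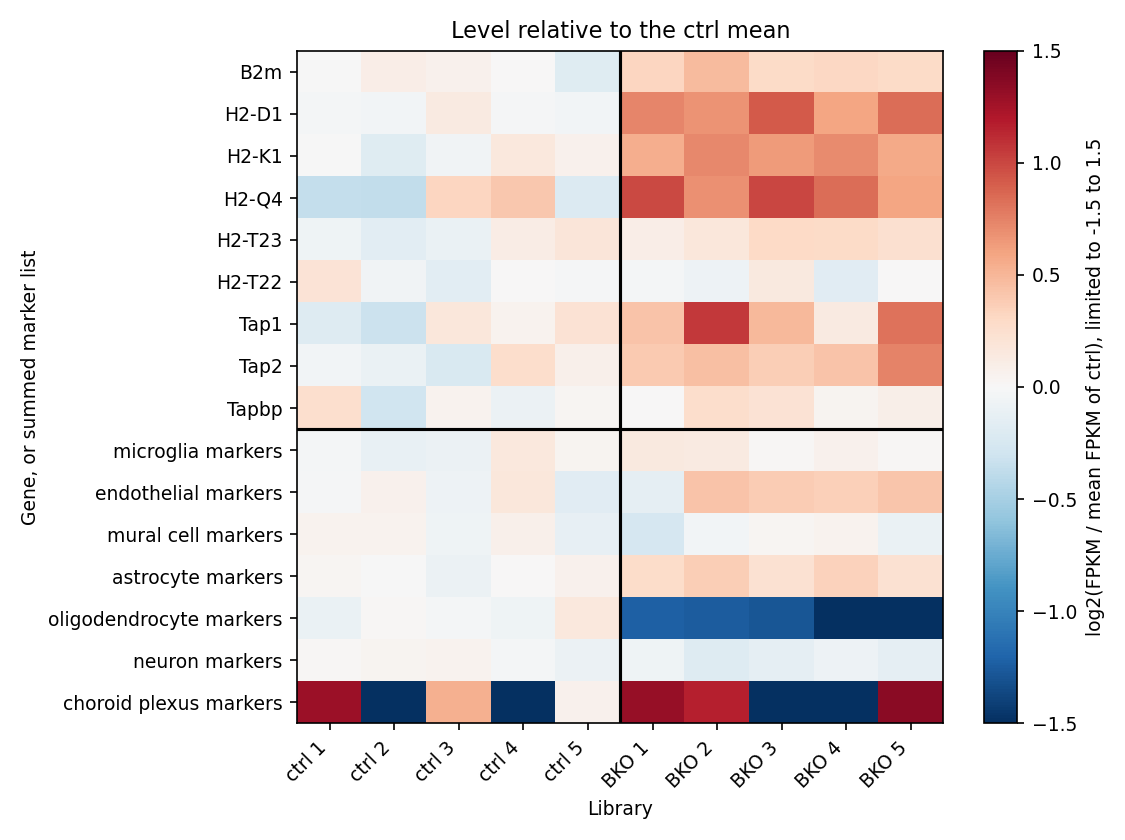
Log2 of each library's FPKM over the ctrl mean, for 9 class I genes and for the summed markers of 7 cell types, with colours limited to -1.5 to 1.5. H2-D1, H2-K1, H2-Q4, B2m and Tap2 are higher in all 5 BKO columns, microglia markers lie near the ctrl mean, oligodendrocyte markers are low in BKO, and choroid plexus markers vary within both groups.

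Choroid plexus markers summed to 45.7 to 2620 FPKM in ctrl and 75.1 to 2770 FPKM in BKO, with 3 high and 2 low libraries in each group. In the 6 high libraries the log2 differences were 0.72 for H2-D1, 0.60 for H2-K1, 0.40 for B2m, 0.73 for H2-Q4 and 0.55 for Tap2, and in the 4 low libraries they were 0.78, 0.67, 0.25, 0.79 and 0.30 in the same order. In the high set H2-D1, H2-K1 and B2m passed (by limma, adjusted p = 0.000483, 0.00245 and 0.0220), with 1.53% of all genes higher and 1.19% lower. In the low set, with 2 libraries a group, H2-D1 and H2-K1 passed (by limma, adjusted p = 0.0127 and 0.0414), with 1.02% of all genes higher and 0.713% lower. With the choroid plexus sum as a covariate all 5 passed (by limma, adjusted p from 6.78e-06 for H2-D1 to 0.0212 for Tap2), with 3.07% of all genes higher and 2.35% lower.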

How the data were processed

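Per the file headers, the deposited values are FPKM computed by the authors, 1 column per library and 10 libraries, with 2 decimals. The submitters' processing notes name STAR, HTSeq and mm39 without versions, and the FPKM formula and filters are not given in the sources used here. No counts were used, so counting error is unknown, and steps between low values put relative depth at 0.901 to 1.14, approximately. The table had 0 columns of other samples, and 0 pairs of libraries were identical.

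Groups came from the labels. Genes reaching 0.5 FPKM in 5 or more libraries were fitted as log2(FPKM + 0.5) with limma 3.58.1 in R 4.3.3 (trend in the variances, 2-sided, Benjamini-Hochberg over 14447 genes, called under 0.05), after the fit was tested on simulated data. SE is limma's moderated standard error. Single values and within-library differences had an exact permutation test. Python 3.11.15, pandas 2.3.3, numpy 2.4.6 and matplotlib 3.10.9 made summaries and figures.

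The 10 genes and the lists were chosen with earlier results of these data known. A gene of these lists that is withheld for evaluation was taken out of them and is not reported here. Named were all 10, Chchd3, up to 4 called genes per pathway list by smallest p (2 where none was called) and the 3 genes most like H2-D1 and B2m. Alternatives were pseudocounts, filters, scalings, replicate block, library weights, robust variances and leaving out each library. The choroid plexus and endothelial settings were added after seeing the data.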

Additional observations from a re-analysis of the deposited data

Results flagged for a closer look

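In each group of 5 libraries, the gap between the highest or lowest value and its neighbour was set against the group's range (Dixon's ratio, 95% critical value), for the 10 class I genes, the other named pathway genes and Chchd3. Of 44 such groups, 5 had a library standing apart, a larger share than the roughly 5% of groups that would by chance. H2-D1 was 35.81 FPKM in ctrl 3, with the other ctrl libraries at 31.7 to 32.36. B2m was 401.27 FPKM in BKO 2, with the others at 350.69 to 360.08. Tap2 was 8.87 FPKM in BKO 5, with the others at 6.89 to 7.26. Ide was 36.62 FPKM in ctrl 1, with the others at 26.82 to 27.22. Cd247 was 4.04 FPKM in BKO 4, with the others at 5.49 to 5.82. The class I calls held without these libraries: B2m and Tap2 passed with every single library left out (limma adjusted p at most 0.00390 and 0.0436), as did H2-D1 (at most 1.73e-05).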

How the results depend on the processing

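Between 5 and 6 of the class I genes tested were higher under each of 20 alternatives (pseudocount, filter, scaling, block, weights, robust variances or a library left out). The sixth was H2-T23 without ctrl 5 and Nlrc5 without the filter. The count was 3 in the 6 libraries high in choroid plexus markers, 2 in the 4 low ones and 3 with the endothelial covariate. In those 3 settings, in that order, 221, 148 and 253 genes were higher overall and 172, 103 and 181 lower, and class I regulators had 1, 0 and 0 calls. Peptide supply genes had 2 calls in the replicate block (Psmb10 and Ide), 1 with the choroid plexus covariate and 0 to 1 with 1 library left out. Class I-like molecules had 1 call (Hfe) without the filter, in the replicate block, in the high and low choroid plexus sets and with either covariate, and 1 to 2 with 1 library left out. After quantile normalization, H2-D1 minus B2m was 0.41 and H2-K1 minus B2m 0.28 (exact permutation test, adjusted p = 0.0635 for each), and with 1 library left out they ran from 0.35 to 0.46 and from 0.22 to 0.35. In same-numbered pairs (replicate block) they were 0.41 and 0.29 (exact sign-flip test, adjusted p = 0.125), where 5 pairs cannot go below p = 0.0625. Tap2 minus Tap1 changed sign after quantile normalization (0.00) and with a pseudocount of 1 (0.03), and ran from -0.11 to 0.08 with 1 library left out. H2-T22 changed sign with equal sums per library (0.00), in the low choroid plexus set (0.01), without ctrl 1 (0.03) and without BKO 4 (0.01), and ran from -0.06 to 0.03 with 1 library left out. The cause of these changes was not tested. The replicate numbers did not pair the libraries (correlations of same-numbered deviations from -0.169 to 0.0855). In the replicate block 5 class I genes were higher, Fcgrt lost its call (limma adjusted p = 0.0872) and Ide passed (limma adjusted p = 0.0230), and 415 genes were higher and 287 lower.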
